A study of Homo sapiens with 8 samples.

Results

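Replication-dependent histone genes were examined in maps of endogenous G-quadruplexes (G4s), the four-stranded structures that G-rich DNA can fold into. The members were chosen by gene symbol alone: protein-coding genes named H1-1 to H1-6, or named H2AC, H2BC, H3C or H4C followed by a digit. This gave 65 of 20176 protein-coding genes, with 51 on chromosome 6, 12 on chromosome 1, 1 on chromosome 12 (H4C16) and 1 on chromosome 21 (H2BC12L). The annotation still lists HIST1H4B and HIST2H2AA3 under older symbols, and both were therefore outside the rule. Other replication-dependent genes that the annotation lacks or names otherwise would be missed too, so the 65 members and their pairs may be incomplete. G4 ChIP-seq was carried out on RNase A-treated chromatin of unperturbed K562 cells, a chronic myelogenous leukemia line, and HepG2 cells, a hepatocellular carcinoma line, with the G4-binding antibody BG4. Per line, the labels list 3 immunoprecipitated libraries and 1 of input chromatin, whereas the lists were built from 8 K562 and 9 HepG2 replicates. Per the paper, these were technical replicates of 3 independent experiments per line, so that 2 replicates can come from 1 experiment. High-confidence intervals are stretches called in 5 or more K562 replicates, or in 6 or more for HepG2, and lower-confidence intervals are those called in 2 or more. The 4 lists hold 9205 and 19249 intervals in K562 and 8805 and 28387 in HepG2, with positions only, so depth and the spread between replicates are unknown. A member was scored as having an interval when at least 1 bp of it lay within 1 kb either side of any of its annotated transcription start sites (TSSs).

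Replication-dependent histone genes supply the bulk of histone protein that packages newly copied DNA during S phase. H2A, H2B, H3 and H4 form the core of the nucleosome, and H1 proteins bind the linker DNA between nucleosomes. Their mRNAs are not polyadenylated and end in a stem-loop bound by SLBP, and their transcription is coordinated by NPAT, which gathers at the histone gene clusters.

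Few of these genes had a high-confidence G4 interval. Only H1-4 and H2BC6 had one in K562 and only H3C2 and H1-2 in HepG2. The sequences of these intervals outside annotated exons are shown because they are the only high-confidence stretches near any member, and because none of the 4 intervals holds a canonical G4 motif (on 1 strand, 4 stretches of 3 or more G, each 1 to 7 bases from the next). Each is written 5′ to 3′ from the reference, and capitals mark runs of at least 3 G or 3 C. The H1-4 stretch is chr6:26156502-26156556 (hg19, plus strand, the strand of the gene), the H2BC6 stretch chr6:26172102-26172262 (plus strand), the H3C2 stretch chr6:26032353-26032490 (minus strand) and the H1-2 stretch chr6:26056721-26056729 (minus strand).

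H1-4, K562: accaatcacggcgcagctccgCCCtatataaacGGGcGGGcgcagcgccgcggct

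H2BC6, K562: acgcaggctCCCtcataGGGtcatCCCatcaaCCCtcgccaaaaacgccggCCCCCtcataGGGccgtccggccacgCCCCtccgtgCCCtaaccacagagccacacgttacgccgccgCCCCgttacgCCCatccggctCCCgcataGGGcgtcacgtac

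H3C2, HepG2: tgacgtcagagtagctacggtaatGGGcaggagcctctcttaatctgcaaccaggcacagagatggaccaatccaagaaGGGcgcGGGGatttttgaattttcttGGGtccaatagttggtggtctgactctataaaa

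H1-2, HepG2: atatacagc

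The H2BC6 stretch held 9 runs of C and 3 runs of G, whereas the H1-4 stretch held 2 runs of G and 1 of C. The H3C2 stretch held 4 runs of G and none of C, but they were spaced too widely for the loop limit of the motif. The H1-2 interval was only 9 bp long and held no run.

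The share of members with an interval was below the share of all protein-coding genes in each of the 4 lists. In K562, 2 of 65 members had a high-confidence interval (3.08%, 95% Wilson interval 0.848 to 10.5), against 35.6% of all protein-coding genes. A lower-confidence interval was present at 16 members (24.6%, 15.8 to 36.3), against 50.1%. In HepG2, 2 members had a high-confidence interval (3.08%, 0.848 to 10.5), against 30.8%. A HepG2 lower-confidence interval was present at 16 members (24.6%, 15.8 to 36.3), against 51.3%. These intervals cover the counting of genes only and assume that genes are independent, which neighbours that share a window are not. The difference from all genes was not tested.

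Genes with more annotated TSSs have more sequence in reach of an interval. The members had a median of 1 TSS and 50 of the 65 had a single one, while all protein-coding genes had a median of 5. With 1 canonical TSS per gene, 1 member and 32.8% of all genes had a K562 high-confidence interval. On the same basis 2 members and 27.9% of all genes had a HepG2 high-confidence interval. For the lower-confidence lists the values were 14 members (21.5%) beside 46.4% in K562 and 15 members (23.1%) beside 46.5% in HepG2.

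**Figure D1:**
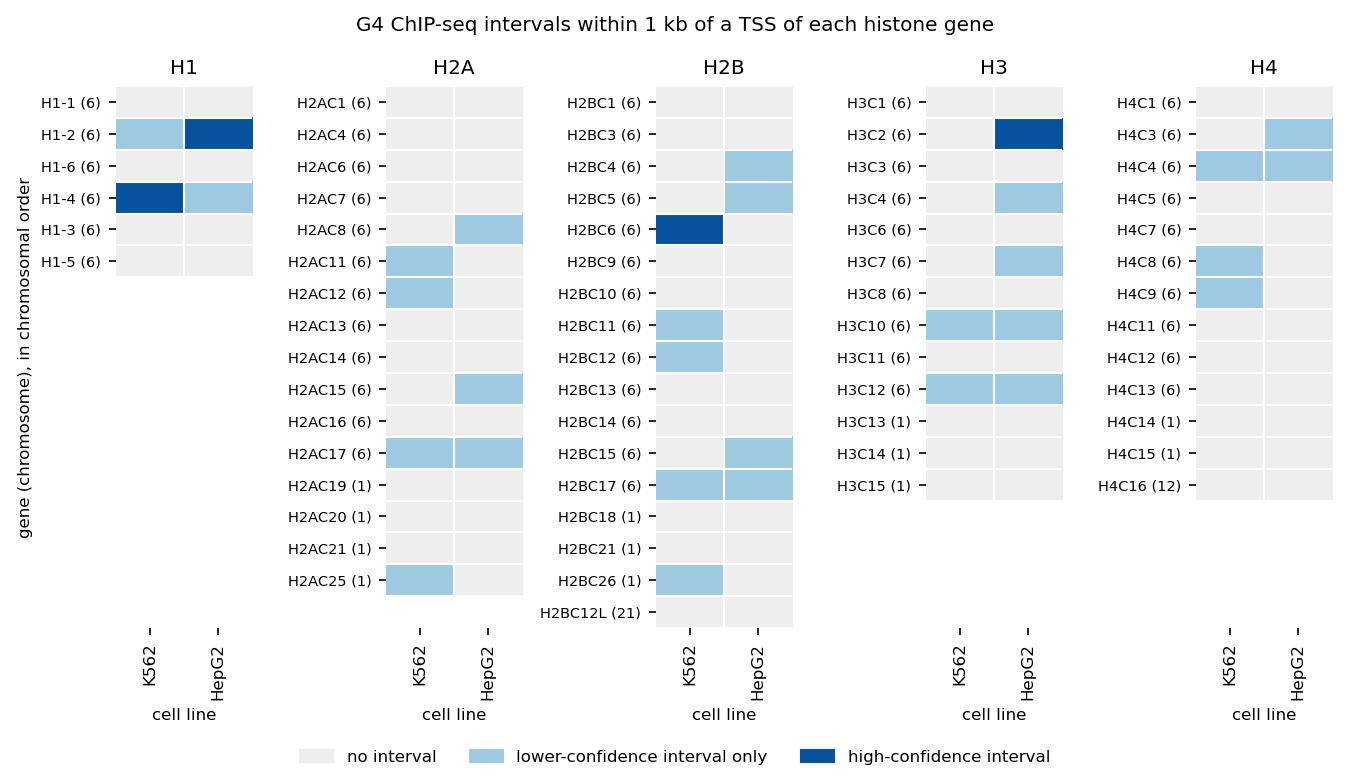
Interval status of the 65 replication-dependent histone genes by class, with K562 and HepG2 as columns and genes as rows in chromosomal order, each followed by its chromosome. Dark cells are high-confidence intervals, light cells lower-confidence intervals only and grey cells no interval, and the dark cells stand at H1-4 and H2BC6 in K562 and at H1-2 and H3C2 in HepG2.

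**Figure D2:**
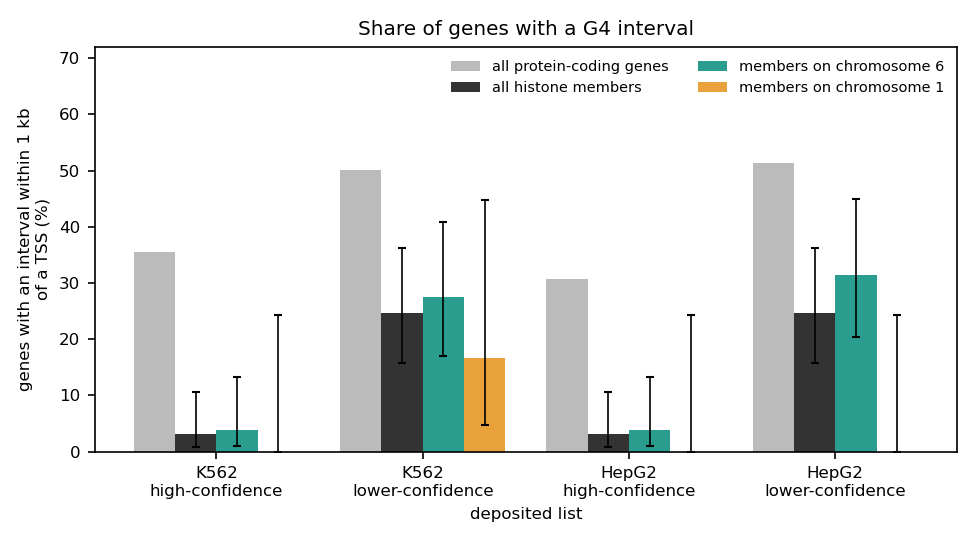
Share of genes with an interval within 1 kb of any TSS in each deposited list (bars, %), for all 20176 protein-coding genes, all 65 members, the 51 members on chromosome 6 and the 12 on chromosome 1. Error bars are 95% Wilson intervals, which cover counting error only, and a bar without height stands for 0 genes.

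Of the 6 linker histone genes, H1-2 and H1-4 had intervals in both lines and H1-1, H1-3, H1-5 and H1-6 had none in any list. An interval in some list was thus present at 33.3% of them, beside 58.9% of all protein-coding genes. H1-6 encodes the linker histone of the testis. At H1-4, the K562 high-confidence interval was 114 bp wide (chr6:26156502-26156615), was centred 1.5 bp downstream of the TSS and had a GC content of 66.7%. It spanned the TATA sequence printed above and part of the 5′ untranslated exon. The surrounding K562 lower-confidence interval was 388 bp wide (chr6:26156469-26156856) and reached 238 bp into the coding sequence. In HepG2, H1-4 had a lower-confidence interval of 104 bp, all of which lay inside the K562 one.

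H1-2 showed the opposite pattern of confidence. Its HepG2 high-confidence interval was 9 bp wide, centred 27 bp upstream of the TSS within the stretch that includes the TATA-like sequence, and had a GC content of 33.3%. The HepG2 lower-confidence interval around it was 164 bp wide (chr6:26056659-26056822). K562 had a lower-confidence interval of 240 bp (chr6:26056553-26056792), and 134 bp were shared between the lines. The narrow high-confidence interval is the stretch in which at least 6 HepG2 replicates overlapped.

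Among the 13 H3 genes, 5 had an interval in some list (38.5%, beside 58.9% of all protein-coding genes). The other 8 (H3C1, H3C3, H3C6, H3C8, H3C11, H3C13, H3C14 and H3C15) had none. H3C2 had the only high-confidence interval of the class, in HepG2, 138 bp wide (chr6:26032353-26032490). It lay wholly upstream of the TSS, was centred 94.5 bp from it and had a GC content of 47.8%. Neither K562 list had an interval at H3C2. H3C10 had overlapping lower-confidence intervals at its start codon in both lines, with 90 bp shared (K562 chr6:27777802-27777894, HepG2 chr6:27777805-27777921). H3C4 and H3C7 had HepG2 lower-confidence intervals in coding sequence, centred 98.5 bp and 389.5 bp downstream of the TSS. H3C12 was counted in both lines through an alternative TSS that lies 2280 bp from its canonical TSS, where it reaches an interval over H2AC17.

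Among the 13 H4 genes, 4 had a lower-confidence interval and none had a high-confidence one. An interval in some list was thus present at 30.8%, beside 58.9% of all protein-coding genes. H4C4 was the only H4 gene with intervals in both lines. The 2 stretches did not overlap: the K562 interval (chr6:26189191-26189423) was centred 33 bp downstream of the TSS, and the HepG2 interval (chr6:26189424-26189536) began at the next base and was centred 140 bp upstream. H4C8 and H4C9 had K562 intervals only, and that of H4C9 was 22 bp wide. H4C3 had a HepG2 interval only, centred 202 bp downstream of the TSS. H4C1, H4C5, H4C7, H4C11, H4C12, H4C13, H4C14, H4C15 and H4C16 had none.

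H2A and H2B genes often lie head to head and share 1 promoter region. Of the 16 H2A genes, 6 had an interval in some list (37.5%, 18.5 to 61.4), and of the 17 H2B genes, 8 had one (47.1%, 26.2 to 69.0). The share of all protein-coding genes, 58.9%, lies inside both ranges. Both genes of a pair were counted where they shared an interval. H2BC6 had the only high-confidence interval of either class, in K562, 223 bp wide (chr6:26172102-26172324) with a GC content of 68.2%. This interval was centred 74 bp upstream of an alternative TSS of H2BC6, which begins a protein-coding transcript and is 11702 bp from the canonical TSS. No interval of any list lay within 1 kb of the canonical TSS of H2BC6. H2BC6 therefore entered the count through its alternative TSS, and 1 member, H1-4, had a K562 high-confidence interval at its canonical TSS.

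The annotation holds 10 divergent H2A and H2B pairs among the members, with 194 to 251 bp between their TSSs. One interval served both genes in 5 of them. In K562, the pairs H2AC25 and H2BC26, H2AC11 and H2BC11, H2AC12 and H2BC12, and H2AC17 and H2BC17 shared lower-confidence intervals. In HepG2, the pairs H2AC15 and H2BC15, and H2AC17 and H2BC17 did. Only the H2AC17 and H2BC17 pair carried intervals in both lines, and the HepG2 interval (chr6:27860796-27860872) lay wholly inside the K562 one (chr6:27860773-27860903). In the pair of H2BC4 and H2AC6, the HepG2 interval lay near H2BC4 alone, centred 875.5 bp downstream of its TSS, and it was lost in a window of 500 bp. H2BC5 had 2 HepG2 intervals of 72 and 45 bp, and H2AC8 had 1. No interval lay at 4 of the 10 pairs.

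The remaining H2A and H2B genes had no interval in any list. These were H2AC1, H2AC4, H2AC6, H2AC7, H2AC13, H2AC14, H2AC16, H2AC19, H2AC20 and H2AC21 among the H2A genes. Among the H2B genes they were H2BC1, H2BC3, H2BC9, H2BC10, H2BC13, H2BC14, H2BC18, H2BC21 and H2BC12L.

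Most lower-confidence intervals at members lay over coding sequence, downstream of the TSS, and the high-confidence ones did not. Of the 2 high-confidence intervals in each line, 0 touched coding sequence, and 1 in K562 and 2 in HepG2 were centred upstream of the TSS. Histone genes have short 5′ untranslated regions and, in the annotation, 65 of 65 members had a single exon in the canonical transcript, against 5.40% of all protein-coding genes. In K562, 11 of 12 lower-confidence intervals at members touched coding sequence and 8 had more than 50% of their length in it. Over all intervals within 1 kb of a coding gene's TSS these shares were 26.8% and 5.24%. In HepG2, 11 of 14 touched coding sequence and 9 had more than 50% of their length in it, against 22.5% and 5.42%. The centre was upstream of the nearest member TSS for 1 of 12 lower-confidence intervals in K562 and 3 of 14 in HepG2, whereas 69.3% and 66.1% of all intervals near coding TSSs were centred upstream. The windows themselves differ in this respect, with a median of 387 bp of coding sequence at members and 70 bp at all genes.

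Coding-sequence stretches are shown for H2AC17, which had an interval in both lines, and H2AC25, which with H2BC26 carried the only interval on chromosome 1. Both are written 5′ to 3′ on the minus strand, the coding strand of these genes, with runs of at least 3 G or 3 C in capitals. The H2AC17 stretch is the HepG2 interval, chr6:27860796-27860872, and the H2AC25 stretch is the K562 interval, chr1:228645236-228645332.

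H2AC17, HepG2: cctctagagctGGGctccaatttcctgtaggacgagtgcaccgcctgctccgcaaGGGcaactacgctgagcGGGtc

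H2AC25, K562: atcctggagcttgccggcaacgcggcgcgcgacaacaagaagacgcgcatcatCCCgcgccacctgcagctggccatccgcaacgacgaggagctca

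The H2AC17 stretch held 3 runs of G and the H2AC25 stretch 1 run of C. The wider K562 interval that contains the H2AC17 stretch held 4 runs of G, which did not meet the loop limit of the motif. These 2 stretches were chosen after their values were seen.

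**Figure D3:**
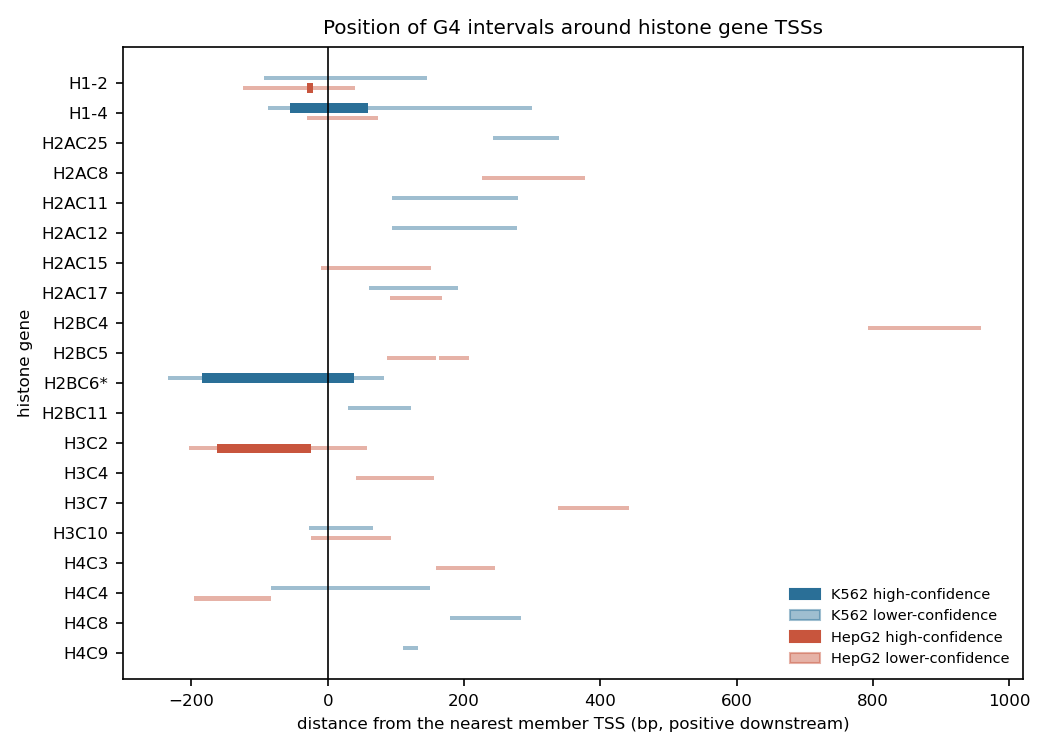
Position of the 30 intervals near members relative to the nearest member TSS (x axis, bp, positive downstream), with genes as rows, K562 in blue and HepG2 in red. Thick bars are high-confidence and thin pale bars lower-confidence intervals, and the asterisk marks H2BC6, whose intervals are drawn from its alternative TSS; most bars lie to the right of 0, and the high-confidence bars overlap it or lie to the left.

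None of the intervals at members held a canonical G4 motif. This was the case for 0 of 12 lower-confidence intervals in K562 and 0 of 14 in HepG2, while 36.2% and 27.4% of all intervals near coding TSSs held one. For the high-confidence lists the counts were 0 of 2 in each line, beside 34.9% and 25.0%. A looser motif, which asks for only 2 G per run, was found in 7 of 12 lower-confidence intervals in K562 and in 4 of 14 from HepG2. The share of all intervals near coding TSSs with this looser motif was not counted, so these counts cannot be called high or low. The member intervals were also narrower, with a median of 157.5 bp in K562 against 245 bp over all intervals near coding TSSs, and 113.5 bp in HepG2 against 215 bp. Their median GC content was 63.8% in K562 and 58.7% in HepG2, against 69.4% and 66.2%.

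A canonical motif was nevertheless present in the window around the canonical TSS of 16 members (24.6%), against 68.3% of all protein-coding genes. The 22 motif positions in these windows overlapped 0 intervals of the 4 lists. Of the members with a motif, H2BC18, H3C14, H2AC19 and H3C15 lie in repeated sequence. In their windows 64.0 to 100% of all 50-base stretches also occurred elsewhere in the genome. There, absence of signal and loss of reads cannot be told apart. A K562 lower-confidence interval was present at 3 of the 16 members with a motif and 13 of the 49 without, and a HepG2 one at 2 and 14. Over all protein-coding genes, 58.3% of those with a motif and 32.5% of those without had a K562 lower-confidence interval, and 58.0% and 36.7% a HepG2 one. For members and all genes alike, motifs were searched around the canonical TSS only and intervals around any TSS. H2BC6, a member with a motif, was counted through its alternative TSS. Motifs that lie within 200 bp of a TSS are shown for 4 members, with runs of at least 3 G in capitals, because they have the usual sequence of a G4 but no interval over them. They were chosen after their values were seen. All are written 5′ to 3′ on the strand of the gene, at chr6:26018082-26018107 (H1-1, minus strand), chr6:26021924-26021941 (H4C1, plus strand), chr6:26285859-26285881 (H4C8, minus strand) and chr1:149812921-149812939 (H3C14, minus strand).

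H1-1: GGGGGcgctaGGGcgcgaGGGGcGGG

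H4C1: GGGcGGGaaGGGtttGGG

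H4C8: GGGctGGGctatgcGGGGtGGGG

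H3C14: GGGGtGGGcGGGattaGGG

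The H1-1 motif was centred 79 bp upstream of the TSS, that of H4C8 108 bp upstream and that of H3C14 150 bp upstream, and the H4C1 motif lay 55 bp downstream. H4C1 had a further motif on the other strand, 170 bp upstream. H1-1, H4C1 and H3C14 had no interval in any list, and H3C14 lies in repeated sequence. H4C8 had its K562 interval 231 bp downstream of the TSS, away from the motif. H3C15 holds the H3C14 motif letter for letter, 154 bp upstream of its own TSS.

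Promoter elements of histone genes were common in the 250 bp upstream of the canonical TSS. TATAAA, searched on both strands, was found at 44 members (67.7%), against 9.40% of all protein-coding genes. CCAAT, on both strands, was found at 55 (84.6%) against 34.2%. The octamer ATTTGCAT, recognised by POU2F1 and known from H2B promoters, was found on either strand at 25 (38.5%) against 1.53%. These were 13 of the 17 H2B genes and 12 of the 16 H2A genes, and none of the H1, H3 or H4 genes. In the 10 divergent H2A and H2B pairs, with 194 to 251 bp between TSSs, the stretches searched for both genes largely coincide. A single match to any of these elements can therefore count for both genes of a pair, and the counts do not show to which gene it belongs. CCAAT was present at 4 of the 13 H4 genes. Set by interval status, TATAAA was present at 17 of 25 with an interval and 27 of 40 without, CCAAT at 23 and 32, and the octamer at 9 and 16 of the same genes. A match gives the presence of the letters and not of a bound factor.

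GC content of the windows was low for promoters. The median over the 2001 bp around the canonical TSS was 48.8% at members (40.1 to 63.9%) and 55.9% over all protein-coding genes, and 43 of the 65 members were under 50%. Members with an interval had a median of 49.3% and members without one 48.8%. The comparison with all genes was therefore repeated within bands of GC content, with 1 canonical TSS per gene. From 45 to 50% GC, 0 of 36 members had a high-confidence interval in either line, against 15.9% of all genes of that GC content in K562 and 18.2% in HepG2. In this band 5 members had a K562 and 4 a HepG2 lower-confidence interval, against 30.4% and 35.1% of genes. From 50 to 55% GC, 1 of 17 members had a high-confidence interval in each line, against 32.5% and 33.0%, and 7 had a lower-confidence interval in each, against 50.2% and 53.1%. Below 45% GC the order was different: 4 of 7 members (H3C2, H4C3, H3C7 and H3C10) had a HepG2 lower-confidence interval, against 6.53% of genes. In the same band 1 member had a HepG2 high-confidence interval (2.38% of genes), 1 a K562 lower-confidence one (4.04%) and 0 a K562 high-confidence one (1.21%). From 55 to 60% GC, 1 of 3 members had a K562 lower-confidence interval, against 56.8% of genes, and none had any other. At 60% GC and over, 0 of 2 members had an interval. The part of GC content in the low share of members was not tested further.

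**Figure D4:**
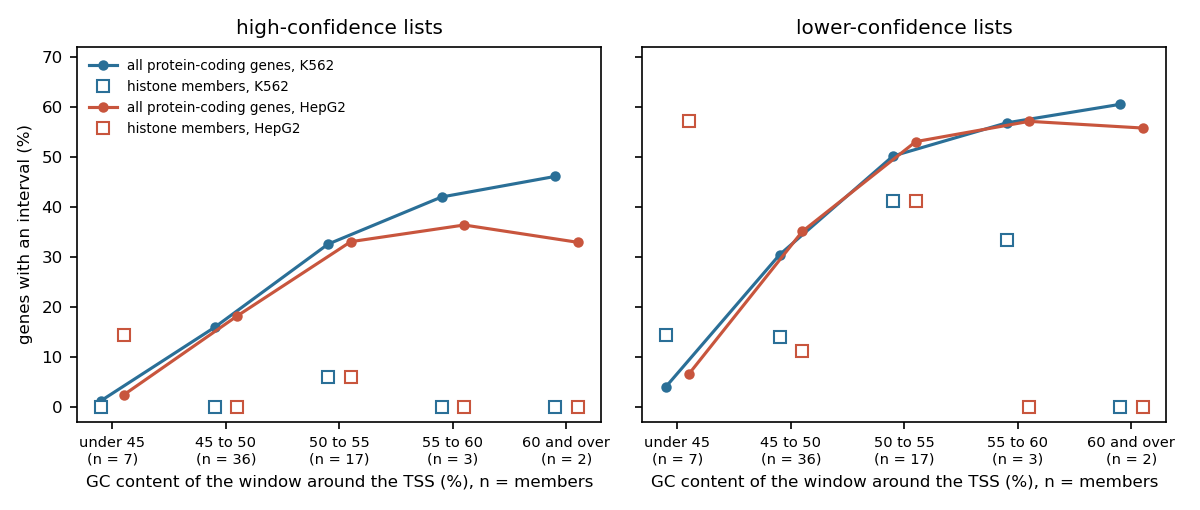
Share of genes with an interval within 1 kb of the canonical TSS (y axis, %) by GC content of the window (x axis, %), for high-confidence lists on the left and lower-confidence lists on the right. Filled points joined by lines are all protein-coding genes and open squares are histone members, with the number of members under each band; from 45 to 55% GC, where 53 members lie, the squares are below the points of all genes in both cell lines.

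The chromosome 6 and chromosome 1 genes were compared as promoter units, in which members whose windows overlap count once, since neighbours share intervals. There were 34 units on chromosome 6 and 7 on chromosome 1. A K562 lower-confidence interval was present at 10 of 34 units (29.4%, 95% Wilson interval 16.8 to 46.2) on chromosome 6 and 1 of 7 (14.3%, 2.57 to 51.3) on chromosome 1. The difference of 15.1 percentage points had a 95% interval of -24.0 to 35.6 (Fisher's exact test, two-sided, p = 0.651, Benjamini-Hochberg adjusted p = 1 over the 4 lists). A HepG2 lower-confidence interval was present at 12 of 34 units (35.3%, 21.5 to 52.1) and 0 of 7 (0 to 35.4). This difference of 35.3 points, with an interval of -2.73 to 52.1, did not pass the test either (exact p = 0.0850, adjusted p = 0.340). Each high-confidence list had an interval at 2 of 34 units on chromosome 6 and 0 of 7 on chromosome 1 (difference 5.88 points, -29.8 to 19.1, exact p = 1, adjusted p = 1). With so few units on chromosome 1, differences in either direction remain compatible with these counts.

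By genes, 23 of 51 members on chromosome 6 (45.1%, 32.3 to 58.6) and 2 of 12 on chromosome 1 (16.7%, 4.70 to 44.8) had an interval in some list, against 58.9% of all protein-coding genes. The 2 on chromosome 1 were H2AC25 and H2BC26, which share 1 K562 interval of 97 bp, far from the main cluster of that chromosome. The 10 members from H2BC18 to H2AC21 had 0 intervals in any of the 4 lists. A motif was present in the windows of 6 of these 10 members, against 9 of 51 on chromosome 6, and their median GC content was 53.4% against 48.1%.

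Sequence repetition also differed between the chromosomes. Reads with a mapping quality under 10, which include reads that fit several places equally well, had been removed by the authors. At 7 of the 12 chromosome 1 members at least 50% of the 50-mers in the window occurred elsewhere in the genome, and the median was 68.2%. For H3C14, H3C15, H4C14 and H4C15 it was 100%, for H2AC19 87.7%, for H3C13 72.3% and for H2BC18 64.0%. On chromosome 6 the median was 1.64% and the highest 23.6%, so none reached 50%. Of the 5 chromosome 1 members under 50%, 2 had a K562 lower-confidence interval (40.0%, 11.8 to 76.9), against 14 of 51 on chromosome 6 (27.5%, 17.1 to 41.0). Without the 7 repeated members the K562 difference between the chromosomes turned round, to -20.6 points (10 of 34 units against 1 of 2, exact p = 0.524, adjusted p = 1). Absence of signal and loss of reads from repeated sequence cannot be told apart at these 7 genes.

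**Figure D5:**
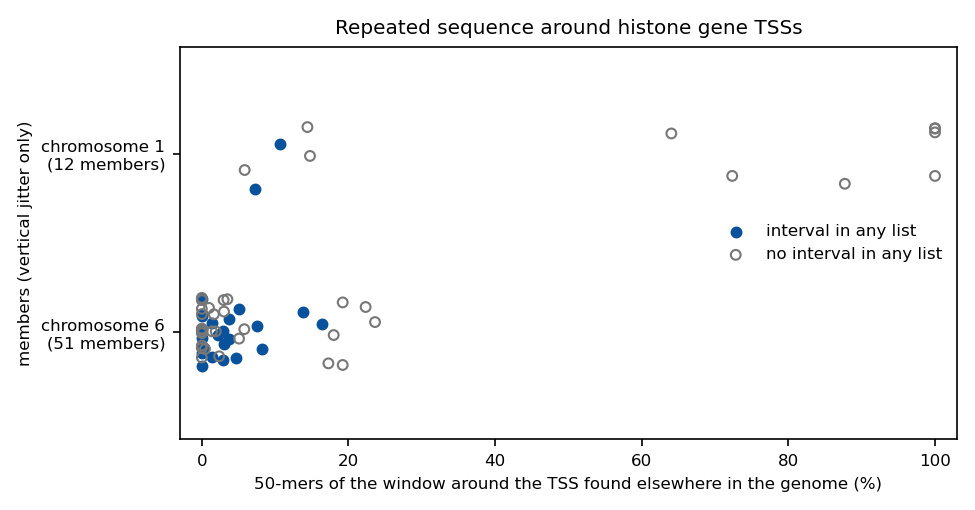
Share of 50-mers in the window around the canonical TSS that occur elsewhere in the genome (x axis, %) for the 51 members on chromosome 6 and the 12 on chromosome 1, with points spread vertically only to separate them. Filled points have an interval in any list; the chromosome 6 members all lie at or below 23.6%, and 7 chromosome 1 members, none with an interval, lie at 64.0% or above.

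Within chromosome 6 the members fell into 3 runs separated by more than 500 kb. The first, H2AC1 to H4C8, held 30 members, all 4 members with a high-confidence interval, and lower-confidence intervals at 5 members in K562 and 10 in HepG2. The second, H2BC11 to H2AC12, held 5 members within 14.3 kb, and 5 of 5 had a K562 lower-confidence interval while 0 had a HepG2 one. These were H2BC11, H2AC11, H4C9, H2BC12 and H2AC12, whose intervals number 4 and lie in coding sequence or, at H2BC11, also in the 5′ untranslated part. H2BC11 with H2AC11, and H2BC12 with H2AC12, are divergent pairs that share their intervals, so the 5 genes are not independent. The H4C9 interval was only 22 bp wide. The third, H2BC13 to H2BC17, held 16 members with lower-confidence intervals at 4 in K562 and 6 in HepG2. Over all protein-coding genes, 50.1% had a K562 lower-confidence interval and 51.3% a HepG2 one. Differences between the runs were not tested. The median distance from a chromosome 6 member's canonical TSS to the nearest high-confidence interval was 99317 bp in K562 (0 to 333771). In HepG2 it was 194134 bp (23 to 340101). These distances were not set beside those of other genes.

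Few members had intervals in both lines. Lower-confidence intervals from both lines were present at 7 members (10.8%, 5.32 to 20.6), against 42.5% of all protein-coding genes, and a high-confidence interval in both lines at 0 of 65 (0 to 5.58), against 24.3%. The 7 were H1-2, H1-4, H3C10, H3C12, H4C4, H2AC17 and H2BC17. At H4C4 the intervals of the lines did not overlap, and H3C12, H2AC17 and H2BC17 were counted through the same interval in each line. A further 9 members had intervals in K562 alone and 9 in HepG2 alone. Over all protein-coding genes, 50.1% had a K562 lower-confidence interval, 51.3% a HepG2 one and 42.5% both. As the lists were built with different replicate numbers and thresholds, and give no value per replicate, differences between the lines were not tested.

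Histone genes outside this class were listed for comparison. In K562, 6 of 14 histone genes listed as replication-independent had a high-confidence interval (42.9%, beside 35.6% of all protein-coding genes). In HepG2, 6 did (42.9%, beside 30.8%). H2AX, which marks DNA breaks when phosphorylated, H2AZ1, H2AZ2, H3-3A and H3-3B had one in both lines. CENPA, the centromeric H3 variant, had a high-confidence interval in HepG2 and a lower-confidence one in K562. MACROH2A1 had intervals in K562 only and MACROH2A2 in HepG2 only. Their median window GC content was 57.9%.

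Genes whose products act on the members were also counted. Among 16 genes of histone gene transcription and histone mRNA processing, 12 (75.0%) had a high-confidence interval in K562 and 11 (68.8%) in HepG2. They included NPAT, HINFP, which activates H4 genes, POU2F1 and SLBP, each with one in both lines. CPSF2 and CSTF2T had none in any list. Among 16 histone chaperone and assembly genes, 14 (87.5%) had one in K562 and 11 (68.8%) in HepG2, and ATRX alone had no interval. In neither list did a gene have intervals in only 1 line. Over all protein-coding genes, 35.6% had a high-confidence interval in K562 and 30.8% in HepG2. The median window GC content of the 2 lists was 56.5% and 56.6%, against 48.8% at members. Intervals near any TSS were counted, and the differences from members and from all genes were not tested.

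The 21 other protein-coding genes that lie between members on chromosome 6 offer a comparison in the same neighbourhood. They are not all free of histone promoters. HIST1H4B, a histone gene under an older symbol, is among them and had a HepG2 lower-confidence interval. A gene without a symbol has the same canonical TSS as the member H2AC7 (chr6:26199521) and had no interval. Their median window GC content was 47.9%, close to the 48.1% of the members there. A high-confidence interval was present at 4 (19.0%) in K562 and 3 (14.3%) in HepG2, and a lower-confidence interval at 6 (28.6%) and 8 (38.1%). ABT1, ZNF184 and ZNF322 had a high-confidence interval in both lines and PRSS16 in K562 only. The members of chromosome 6 had a high-confidence interval at 2 of 51 genes in each line (3.92%, 1.08 to 13.2). Their lower-confidence shares, 14 of 51 in K562 (27.5%) and 16 of 51 in HepG2 (31.4%), were nearer to those of the neighbours. The difference from these neighbours was not tested.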

How the data were processed

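G4 ChIP-seq reads of K562 and HepG2 were trimmed with cutadapt, aligned to hg19 with BWA and freed of duplicates and of reads with a mapping quality under 10 by the authors. Peaks were called per replicate with MACS2 (q-value under 0.05) and merged with bedtools. The deposited lists give interval positions in bp, with replicates pooled, and carry no count, height or q-value. Intervals were compared with GENCODE version 44 lifted to GRCh37. Shares have 95% Wilson intervals, and differences between chromosomes a Newcombe interval and a two-sided Fisher's exact test. Overlap, motif and unit functions were tested on simulated data and equalled a direct search in 100% of 3000, 500 and 200 cases. A 50-mer counted as repeated when it, or its reverse complement, occurred at another place in the genome.

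The members and gene lists were chosen with earlier results of these data known. Members with a high-confidence interval were named in full, the others by class. Alternatives were other windows (500 bp, 2 kb, 1 kb upstream only), other TSS sets, an overlap of at least 50 bp, intervals under 50 bp left out, genes in place of units, and, added after seeing the data, the canonical TSS only, HIST1H4B and HIST2H2AA3 added, and repeated members left out. The RefSeq promoter table is on another build and was not used. Python 3.11.15, pandas 2.3.3, scipy 1.17.1, statsmodels 0.14.6, pysam 0.24.0, numba 0.67.0 and matplotlib 3.10.9 were used.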

Additional observations from a re-analysis of the deposited data

How the results depend on the processing

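With only the 1 kb upstream of a TSS searched, members with a HepG2 lower-confidence interval fell from 16 to 8. Requiring 50 bp of overlap, or leaving out intervals under 50 bp, left 1 member with a HepG2 high-confidence interval, H3C2, since that of H1-2 is 9 bp wide. With the canonical TSS only, an alternative chosen after seeing the data, 1 member had a K562 high-confidence interval. Without the members with at least 50% of their 50-mers elsewhere, also chosen after seeing the data, the K562 lower-confidence difference between chromosomes 6 and 1 was -20.6 percentage points. By construction this leaves 2 units on chromosome 1. All other member counts stayed within 1.5 times the reported ones, and all other chromosome differences kept their sign and did not pass the test after adjustment. With genes in place of units, the HepG2 lower-confidence counts were 16 of 51 against 0 of 12. Fisher's exact test then gave p = 0.0271 and adjusted p = 0.108, although genes that share intervals are not independent. No paired analysis was possible because the lists pool the replicates, and leaving out a replicate was not possible for the same reason. Depth is unknown, so an absent interval may lie under the calling threshold.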
